A study of Mus musculus with 80 samples.

Results

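The genes described here are the ADAM, ADAMTS, ADAMTS-like, matrix metalloproteinase (MMP) and tissue inhibitor of metalloproteinases (TIMP) genes, taken by their gene symbols from the expression table. They numbered 83 of the 25899 genes of the table: 32 ADAM, 19 ADAMTS, 5 ADAMTSL, 23 MMP and 4 TIMP genes. In the 30 libraries that passed the quality control of the study, 77 of the 83 had at least 1 read in at least 1 library, and the other 6 (*Mmp7*, *Mmp10*, *Mmp13*, *Adam26a*, *Adam6a* and *Adam6b*) had none. By family, 29 ADAM, 19 ADAMTS, 5 ADAMTSL, 20 MMP and 4 TIMP genes had reads.

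Muscle stem cells (MuSCs, or satellite cells) were sorted by their GFP from the extraocular muscles (EOM, which move the eye) and from the *Tibialis anterior* (TA, a limb muscle) of 10 *Tg:Pax7-nGFP* donors, male littermates on a C57BL/6;DBA2 F1/JRj background aged 7 to 7.6 weeks, in 2 experiments. The transgene places nuclear GFP under the control of *Pax7*, and viable cells were sorted by that reporter with their size and granularity, with no further surface marker named. RNA from 500 cells of each muscle was sequenced before grafting (8 EOM and 8 TA libraries passed). Cells of the same donors were also grafted into the TA of *Rag2-/-;γC-/-* recipients on C57BL/6J, which lack lymphocytes and whose TA had been injured with cardiotoxin, EOM cells in one leg and TA cells in the other, and GFP-positive cells were sorted again. The labels give day 21 for this sort, which lies within the range of the study's methods, while its results name a later day. The 7 EOM and 7 TA graft libraries that passed were made from few cells each, down to 9 and 16.

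Metalloproteinases of these families depend on zinc and act at the cell surface or in the matrix around the cell. ADAMs shed the outer parts of membrane proteins, ADAMTS enzymes are secreted and cut proteoglycans or process procollagens, MMPs cut collagens, gelatin, laminin and other matrix proteins, and ADAMTS-like proteins carry the ADAMTS ancillary domains without a protease. TIMPs bind and block the active sites, TIMP3 with the broadest reach over MMPs, ADAMs and ADAMTS enzymes. In muscle, the satellite cell sits between the fibre and a basal lamina of laminin and collagen IV, and remodelling of that matrix accompanies regeneration.

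Levels are given as deposited, in log2 RPM (reads scaled to library size), where a gene without a read stands at 0.9 of a read and thus between -1.67 and 0.48 depending on the depth of the library. The passing libraries held 3326270 to 14402975 reads, and the reads recovered on genes ran from 963432 to 4169357. Mitochondrial genes took 2.96 to 9.18% of the gene reads in EOM and 3.47 to 28.8% in TA MuSCs before grafting, and 5.59 to 67.6% in EOM and 8.73 to 81.1% in TA grafts. The members took 0.455 to 0.596% of gene reads in EOM and 0.258 to 0.44% in TA MuSCs before grafting, ranges that did not overlap, and 0.188 to 0.517% in EOM and 0.178 to 1.13% in TA grafts. Of the reads outside mitochondrial genes they took 0.471 to 0.614% in EOM and 0.282 to 0.493% in TA MuSCs before grafting, which did overlap, and 0.453 to 1.01% in EOM and 0.478 to 1.24% in TA grafts. From before to after grafting in EOM, the median share was lower on all gene reads (0.531 to 0.397%) and higher without mitochondrial genes (0.562 to 0.677%). Of the muscle stem cell markers (*Pax7*, *Myf5*, *Cdh15*, *Vcam1* and others), all 10 had reads in most libraries of each group. Their summed level was 15710 to 20037 RPM in EOM and 11936 to 21665 RPM in TA MuSCs before grafting, but 1272 to 13818 RPM in EOM and 242 to 9656 RPM in TA grafts. In such sorted populations, fewer cells of a type and less RNA per cell cannot be told apart.

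A few members stood highest. Per kilobase of exon, which allows genes to be compared, *Mmp2* (gelatinase A, which cuts gelatin and collagen IV) had the highest mean level in EOM MuSCs before grafting at 388 ± 56 RPM per kb (SD, n = 8), followed by *Timp3* at 292 ± 56.5, *Timp2* at 216 ± 65.9, *Adamts1* at 163 ± 35, *Timp1* at 136 ± 41 and *Adamts4* at 86.9 ± 29.3. Neighbours in this order from *Timp2* to *Timp1* lay within 1 SD of each other. In TA MuSCs the order was *Adamts1* at 220 ± 51 RPM per kb (SD, n = 8), *Timp2* at 156 ± 26.7, *Mmp2* at 142 ± 48.3, *Adamts4* at 98.3 ± 57, *Timp3* at 83.5 ± 24.6 and *Timp1* at 66.7 ± 27.9. These 6 genes also held the 6 highest levels in both kinds of graft, where *Adamts4* stood first at 177 ± 161 RPM per kb in EOM grafts and 411 ± 229 in TA grafts (SD, n = 7 each). In EOM and TA MuSCs before grafting 27 and 25 members had a read in every library, against 19 and 18 in EOM and TA grafts. Detection was lower in grafts over all genes too. The median number of genes read per library was 13664.5 in EOM and 13516.5 in TA MuSCs before grafting, and 12098 in EOM and 11890 in TA grafts. The share of all genes read in every library was not counted.

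**Figure D1:**
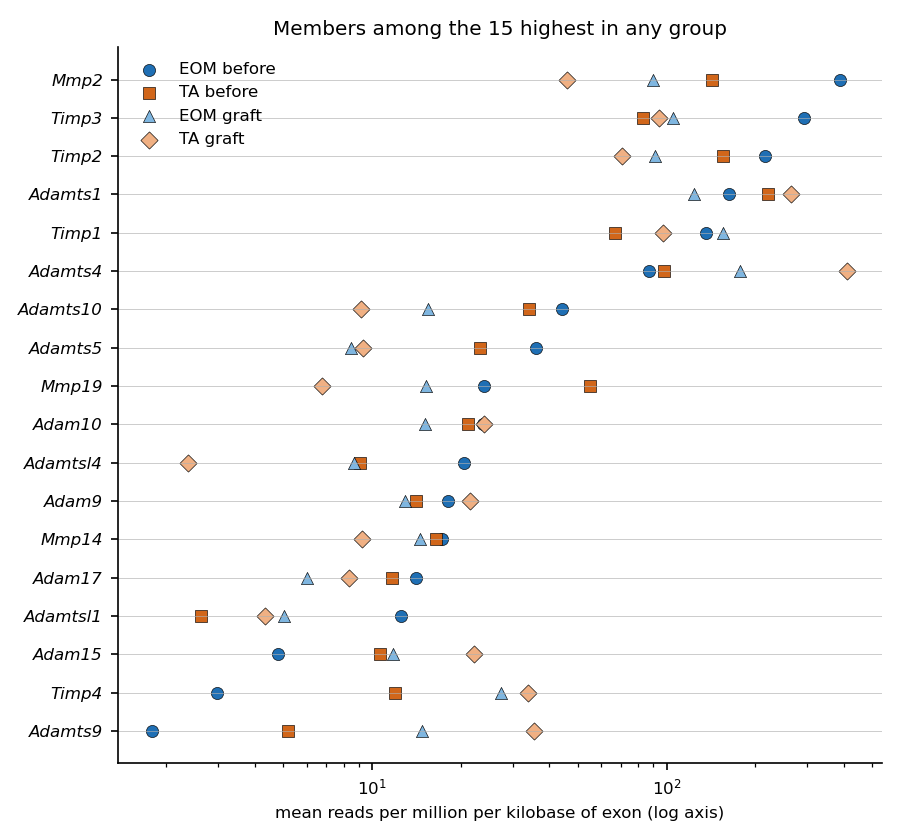
Mean level of the 18 members that ranked among the 15 highest in any group, in RPM per kilobase of exon on a log axis, with 1 symbol per group (8 EOM and 8 TA libraries before grafting, 7 EOM and 7 TA graft libraries). *Mmp2*, *Timp3*, *Timp2*, *Adamts1*, *Timp1* and *Adamts4* hold the 6 highest levels in each group, and *Timp4* and *Adamts9* are lowest in EOM MuSCs before grafting and highest in TA grafts.

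The other classical enzymes were scarce. None of the 4 collagenases (*Mmp1a*, *Mmp1b*, *Mmp8* and *Mmp13*) passed the filter on low values in any comparison. *Mmp9* (gelatinase B, abundant in neutrophils and macrophages) had reads in 2 of 8 EOM libraries before grafting and in no TA or graft library. 1 of the 2, from mouse 2 of experiment 2, held 99 reads and the other 1. That library also stood apart in the summed level of 9 macrophage and neutrophil markers, at 1796 RPM against a median of 32.1 RPM over the 8 EOM libraries, and the part of such cells in its *Mmp9* reads was not tested. *Mmp14* (MT1-MMP, the membrane enzyme that activates pro-MMP2) was read in every library, with a median of 6.61 log2 RPM in both EOM and TA MuSCs before grafting, 6.22 in EOM grafts and 6.09 in TA grafts. Among the sheddases, *Adam10* and *Adam17*, which act on Notch receptors and on TNF respectively, were read in every library as well; *Adam10* stood at 23.8 ± 6.17 RPM per kb in EOM and 21.1 ± 6.17 in TA MuSCs before grafting (SD, n = 8 each), within 1 SD of each other.

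The start regions of 4 members on which the results below turn are shown from RefSeq (GRCm38.p6; 250 bases before to 50 after the gene start, 5′ to 3′ on the strand of the gene), with matches to CAGCTG, an E-box bound by myogenic factors, and to GGGCGG on either strand, the GC box, in capitals. *Timp3*, the inhibitor called between EOM and TA on every scaling, is followed by 3 genes that were higher in grafts.
Timp3 (chr10:86300162-86300461, + strand): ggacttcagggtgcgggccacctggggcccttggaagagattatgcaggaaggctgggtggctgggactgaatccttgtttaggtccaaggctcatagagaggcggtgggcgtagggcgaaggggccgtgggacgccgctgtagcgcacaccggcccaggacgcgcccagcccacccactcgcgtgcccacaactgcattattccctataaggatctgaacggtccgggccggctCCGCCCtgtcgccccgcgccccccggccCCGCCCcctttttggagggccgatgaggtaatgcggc
Timp4 (chr6:115252156-115252455, - strand): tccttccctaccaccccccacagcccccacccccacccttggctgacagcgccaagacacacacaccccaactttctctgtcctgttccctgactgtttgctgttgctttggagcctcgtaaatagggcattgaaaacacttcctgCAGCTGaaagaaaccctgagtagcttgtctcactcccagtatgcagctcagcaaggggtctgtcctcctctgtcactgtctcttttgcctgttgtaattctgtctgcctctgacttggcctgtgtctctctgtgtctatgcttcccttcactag
Adamts9 (chr6:92943485-92943784, - strand): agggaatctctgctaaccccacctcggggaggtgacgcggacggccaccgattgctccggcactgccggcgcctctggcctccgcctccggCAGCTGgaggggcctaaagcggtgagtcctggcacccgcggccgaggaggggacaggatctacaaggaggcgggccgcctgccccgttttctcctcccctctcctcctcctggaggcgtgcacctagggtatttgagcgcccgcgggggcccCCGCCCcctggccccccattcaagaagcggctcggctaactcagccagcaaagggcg
Mmp15 (chr8:95352046-95352345, + strand): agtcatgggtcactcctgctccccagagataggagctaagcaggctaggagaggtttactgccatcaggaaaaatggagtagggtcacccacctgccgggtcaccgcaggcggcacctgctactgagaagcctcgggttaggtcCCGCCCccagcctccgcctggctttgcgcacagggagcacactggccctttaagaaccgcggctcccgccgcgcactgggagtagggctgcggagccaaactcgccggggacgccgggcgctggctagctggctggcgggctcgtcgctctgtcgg
Over all 32851 such regions of the table, 16.3% held CAGCTG and 35.66% held GGGCGG. Of the 57 regions given for 52 members, 11 held CAGCTG, 27 held GGGCGG and 12 held TGANTCA, the AP-1 motif, which 7.81% of all regions held. *Timp4* and *Adamts9* held 1 CAGCTG each, *Timp3* held 2 GC boxes and *Adamts9* and *Mmp15* 1 each; TGANTCA was in none of these 4.

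The first comparison asked how EOM and TA MuSCs differed before grafting. A gene was called where limma gave an adjusted p under 0.05 and a log2 difference (TA minus EOM) over 1 in size. Of 43 members tested, 7 were lower in TA (*Adamts8*, *Adamts6*, *Adamtsl1*, *Timp3*, *Mmp2*, *Adamtsl4* and *Timp1*) and 2 were higher (*Mmp19* and *Adamts9*). Over all 13217 genes tested, 3.31% were lower and 1.26% higher in TA. The median difference was -0.26 over the members tested and -0.30 over all genes, so that single genes are best read against that shift. Calls were also counted where they held in the same direction on 5 scalings (the deposited one, without mitochondrial genes, centred on the median, edgeR and DESeq2): 5 members were then lower and 2 higher, against 1.29% and 1.14% of all genes.

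Of the inhibitors, *Timp3* and *Timp1* were called lower in TA, and of the MMPs *Mmp2*. *Timp3* (chr10:86300372-86349506, + strand, GRCm38) ranged from 10.63 to 11.61 log2 RPM in the 8 EOM libraries, with a median of 11.22, and from 8.58 to 10.06 in the 8 TA libraries, with a median of 9.32. Every EOM library lay above every TA library. The difference was -1.84 ± 0.18 (SE, limma adjusted p = 4.05e-07), or 3.57-fold lower in TA. Of the 8144 exonic bases of *Timp3*, 1733 overlap exons of *Syn3* on the other strand. The study reports reads split about evenly between the sense strand and the other strand in each library. Strand therefore could not assign the reads of these bases, which may belong to either gene. *Mmp2* (chr8:92827328-92853417, + strand) ranged from 10.07 to 10.66 log2 RPM in EOM libraries (median 10.36) and from 8.06 to 9.38 in TA libraries (median 8.86), again without overlap, a difference of -1.51 ± 0.18 (SE, limma adjusted p = 9.14e-06) or 2.86-fold lower in TA. *Timp1* (chrX:20870166-20874735, + strand), the inducible inhibitor, ranged from 6.44 to 7.59 log2 RPM in EOM (median 6.75) and from 5.07 to 6.65 in TA (median 5.90), with the groups overlapping, and differed by -1.09 ± 0.25 (SE, limma adjusted p = 0.00695). That call was lost on 4 of the 5 scalings (values from -0.93 to -0.83) and when the TA library of mouse 1, 3 or 6 or the EOM library of mouse 6 of experiment 2 was left out (lowest size over all such fits, -0.99).

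Among the ADAMTS and ADAMTS-like genes, *Adamtsl1* (punctin, a matrix protein without protease; chr4:86053915-86428385, + strand) ranged from 5.94 to 7.72 log2 RPM in EOM (median 7.44) and from 4.33 to 5.58 in TA (median 5.10). The groups did not overlap, and the difference was -2.23 ± 0.26 (SE, limma adjusted p = 6.34e-06), or 4.69-fold. *Adamts8* (chr9:30942562-30963838, + strand), which can cut aggrecan, had 27 to 147 reads in EOM libraries (median 86) and 0 to 13 in TA libraries, 2 of which had none. Its log2 difference was -3.76 ± 0.69 (SE, limma adjusted p = 0.00104). *Adamts6* (chr13:104287873-104494763, + strand), an enzyme of fibrillin microfibrils, had 11 to 23 reads in each EOM library and 0 to 5 in each TA library, a log2 difference of -3.11 ± 0.60 (SE, limma adjusted p = 0.00169). Both are low genes whose fitted differences lean on the value given to 0 reads. *Adamtsl4*, a microfibril-binding protein, ranged from 5.84 to 6.88 log2 RPM in EOM (median 6.35) and from 4.01 to 6.09 in TA (median 5.04), with a difference of -1.27 ± 0.26 (SE, limma adjusted p = 0.00333) that fell just under 1 in size with edgeR and DESeq2 (-0.97 in both).

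The 2 genes that were higher in TA came from different families. *Mmp19* (chr10:128790953-128800824, + strand), a secreted MMP that cuts basement membrane proteins, ranged from 7.24 to 7.90 log2 RPM in TA (median 7.65) and from 4.58 to 7.06 in EOM (median 6.39). No EOM library reached the TA range, and the difference was 1.33 ± 0.26 (SE, limma adjusted p = 0.002), or 2.52-fold. Of its 3533 exonic bases, 789 overlap *Tmem198b* on the other strand. *Adamts9* (chr6:92772699-92943492, - strand), a proteoglycan-cutting enzyme conserved from worm to man, ranged from 4.80 to 7.28 log2 RPM in TA (median 6.03) and from 2.73 to 5.67 in EOM (median 4.58), with overlap, and differed by 1.55 ± 0.39 (SE, limma adjusted p = 0.0158). Within experiment 2 alone (5 EOM and 6 TA libraries) these differences were 1.20 and 1.63 and neither was called. All 7 members lower in TA were also called there. Over all 12596 genes of that fit, 97 were higher and 295 lower. In the fit over all 4 groups, which share 1 estimate of the spread, neither was called and 4 members were lower. That fit called 68 of 13217 genes higher and 138 lower. In a paired fit with the donor mouse as replicate block, 4 members were higher in TA, the 2 above with *Timp4* and *Adamts12*. There 8 were lower, the 7 above with *Adam19*. Over all 13069 genes of the paired fit, 266 were higher and 439 lower.

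**Figure D2:**
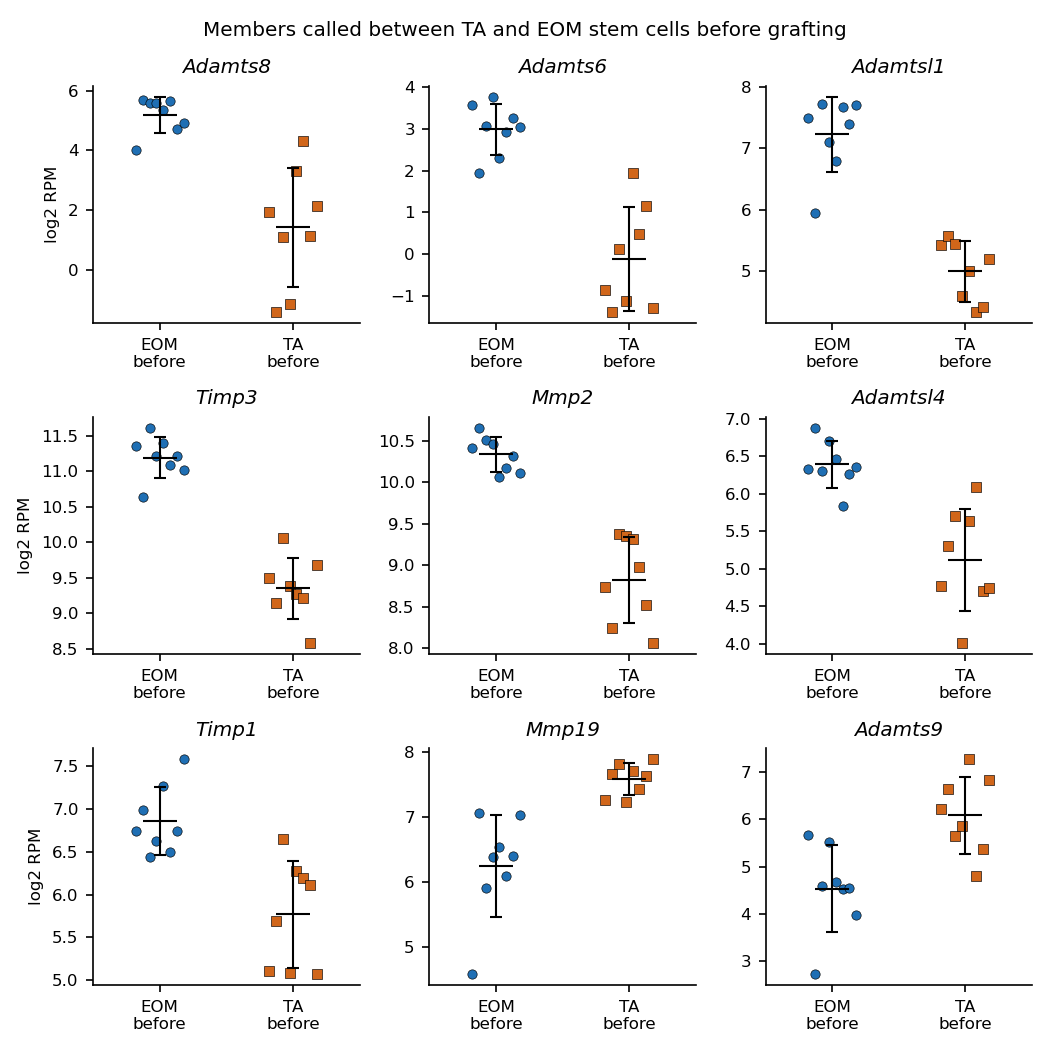
Log2 RPM of the 9 members called between TA and EOM MuSCs before grafting, 1 point per library (8 EOM, blue circles; 8 TA, orange squares), with the mean and SD as bars; each panel has its own vertical axis. The groups do not overlap for *Timp3*, *Mmp2*, *Adamtsl1* and *Mmp19*, and overlap for *Adamts8*, *Adamtsl4*, *Timp1* and *Adamts9*. The *Adamts6* ranges meet at 1.94 without overlap.

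The remaining inhibitors and sheddases gave smaller or more scattered values. *Timp2*, which also takes part in the activation of pro-MMP2, differed by -0.44 ± 0.16 (SE, limma adjusted p = 0.0897). *Timp4* ranged from 0 to 106 reads in EOM and from 0 to 744 in TA libraries, with a log2 difference of 3.16 ± 1.26 (SE, limma adjusted p = 0.125). It was called with the replicate block at 4.40. *Adam10* differed by -0.19 ± 0.20 and *Adam17* by -0.34 ± 0.23 (SE, limma adjusted p = 0.59 and 0.374). *Adamts1* and *Adamts5*, the aggrecanases with the most reads here besides *Adamts4*, differed by 0.43 ± 0.16 and -0.71 ± 0.20 (SE, limma adjusted p = 0.115 and 0.0298), under the threshold on size. By group, 0 of 7 sheddase ADAMs tested were called in either direction, 1 of 7 proteoglycan-cutting ADAMTS was higher and 1 lower, 2 of 5 ADAMTS-like genes were lower, 0 of 5 membrane-type MMPs were called, and 2 of 4 TIMPs were lower.

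Some markers of other cell types also differed between these groups. Of 7 fibro-adipogenic markers tested (cells that express much matrix), 3 were lower in TA, 1 of them on every scaling. The others were not called and reached 2.395 in the opposite direction. All 8 of the list had reads in both groups, summing to 1453 to 3727 RPM in EOM and 1320 to 2320 RPM in TA. Schwann cell markers, of which 1 of 5 was lower in TA (on every scaling), summed to 30.2 to 2631 RPM in EOM and 6.19 to 437 RPM in TA with all 5 read in both. Endothelial markers (*Pecam1*, *Cdh5*, *Kdr*, *Tie1*, *Emcn*, *Cldn5* and *Egfl7*) summed to 2.27 to 431 RPM in EOM and 4.03 to 1968 RPM in TA. All 7 were read in both groups, and 1 was called higher in TA, though not on every scaling. Myofibre markers were higher in TA for 2 of 6 (*Acta1* and *Myh4*, on every scaling), with sums of 8.42 to 43.8 RPM in EOM and 20.7 to 269.7 RPM in TA, and smooth muscle and pericyte markers for 1 of 5 (*Myh11*, on every scaling), with sums of 455 to 798 RPM and 325 to 1515 RPM. All genes of both lists had reads in both groups. None of the 3 macrophage and neutrophil markers or 2 tenocyte markers tested was called. The part of such cells in the differences above was not tested.

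Among 22 regulators outside the families (inhibitors, activators, chaperones and clearance receptors of these enzymes), 19 were tested in this comparison. 2 were lower and 1 higher in TA. *Pcsk6* (PACE4, a proprotein convertase) differed by -4.47 ± 0.82 (SE, limma adjusted p = 0.00107) and *Tspan15* (a tetraspanin partner of ADAM10) by -1.08 ± 0.16 (SE, limma adjusted p = 6.9e-05). *Plau* (urokinase, which generates plasmin) was higher in TA by 1.02 ± 0.31 (SE, limma adjusted p = 0.0433). *Reck*, a membrane-anchored inhibitor of MMPs, differed by -1.56 ± 0.62 (SE, limma adjusted p = 0.126) and *Furin*, a convertase that activates pro-MMP14, by 0.01 ± 0.17 (SE, limma adjusted p = 0.986).

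The second question was what grafting into a regenerating TA did to each population. On the deposited scale most genes fell: the median difference over all genes (graft minus before) was -1.48 for EOM and -1.09 for TA, and over the members tested -0.73 and -0.43. In EOM, 18 of 44 members tested were lower and 5 higher after grafting, against 55.8% and 3.51% of 13094 genes. In TA, 8 of 41 members tested were lower and 4 higher, against 30.9% and 3.79% of 13076 genes. These counts depend on the scaling. Centred on the median they became 3 lower and 8 higher in both EOM and TA. Over all genes, 634 were then lower and 871 higher in EOM, and 743 and 1003 in TA. On every scaling, 1 member was lower (*Adamts5*) and 4 higher (*Timp4*, *Adamts2*, *Adamts9* and *Mmp15*) in EOM grafts, against 1.92% and 3.18% of genes, and 1 was lower (*Mmp19*) and 2 higher (*Adamts4* and *Adamts9*) in TA grafts, against 2.26% and 2.93%. Each kind of graft had 1 library from experiment 1. Within experiment 2 alone, 4 of 40 members tested were higher in EOM grafts (*Adamts9*, *Timp4*, *Mmp15* and *Adamtsl3*) and 17 lower. Over all 12496 genes tested there, 474 were higher and 6739 lower. In TA grafts 2 of 40 were higher (*Adamts4* and *Adamts9*) and 4 lower, against 198 and 1803 of 12452 genes. With the donor mouse as replicate block, 3 of 41 members tested were higher in EOM grafts (*Adamts9*, *Timp4* and *Adamts2*), against 293 of 12722 genes.

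*Adamts9* was higher after grafting in both populations. In EOM it ranged from 2.73 to 5.67 log2 RPM before (median 4.58) and from 4.51 to 8.82 after grafting (median 7.88), in TA from 4.80 to 7.28 before (median 6.03) and from 7.01 to 10.71 after (median 8.47). All but 2 of the 7 EOM grafts and all but 1 of the 7 TA grafts lay above the highest library before grafting. The differences were 2.56 ± 0.62 in EOM and 2.50 ± 0.47 in TA (SE, limma adjusted p = 0.00282 and 9.98e-04), and the calls were kept without any single library. Part of its exons (1381 of 15048 bases) overlap *A730049H05Rik* on the other strand.

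*Timp4*, an inhibitor known from heart, fat and vessels, ranged from 0 to 106 reads in EOM libraries before grafting, 3 of which had none, and from 5 to 996 reads in EOM grafts. In log2 RPM the highest EOM library before grafting stood at 6.11, and 2 EOM grafts lay below it (1.34 and 3.44) with 1 just above (6.22). Its difference was 4.35 ± 1.30 in EOM (SE, limma adjusted p = 0.0089) and 2.43 ± 0.84 in TA (SE, limma adjusted p = 0.0293). In TA, it was not called by edgeR (2.19) or without the graft of mouse 6 of experiment 2 (1.57). *Mmp15* (MT2-MMP, a membrane-type MMP; chr8:95352268-95374293, + strand) had 0 to 18 reads in EOM libraries before and 0 to 58 after grafting, and 0 to 37 and 5 to 74 in TA libraries. Its differences were 2.37 ± 0.96 in EOM and 3.20 ± 0.91 in TA (SE, limma adjusted p = 0.0378 and 0.012). In EOM the call was kept in 6 of 15 fits that left out 1 library, and in TA it was lost with edgeR (2.86). *Adamts2*, the main procollagen N-proteinase, was read in 3 of 8 EOM libraries before and in 5 of 7 after grafting, with a difference of 2.69 ± 1.13 (SE, limma adjusted p = 0.0434) that was kept in 5 of 15 such fits, and of 2.01 ± 0.95 in TA (SE, limma adjusted p = 0.0939). Some grafts held few cells or much mitochondrial RNA. In EOM, the grafts over 50% mitochondrial were left out, a choice made after seeing the data. *Adamts9* (2.29) and *Adamts2* (4.98) were then called. *Timp4* (3.32, limma adjusted p = 0.121) and *Mmp15* (1.72, limma adjusted p = 0.247) were not. There 3 members were higher and 9 lower, against 228 and 3713 of 12773 genes. Without the grafts of under 20 cells, *Mmp15* was lost in EOM (1.87) and *Timp4* in TA (2.16, limma adjusted p = 0.108). *Adam33* was called in EOM at 2.27 ± 0.98 (SE, limma adjusted p = 0.0497) on reads in 3 of 7 grafts and in 1 of 8 libraries before. These libraries alone, most of them grafts, carried it through the filter on low values. It was tested in 11 fits that left out 1 library, and the call was kept in 4 of them.

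*Adamts4* (aggrecanase-1) was called in TA, where it ranged from 7.44 to 9.94 log2 RPM before (median 8.78) and from 9.64 to 11.88 after grafting (median 10.99). The difference was 2.07 ± 0.42 (SE, limma adjusted p = 0.00166), and only 2 TA grafts fell within the range before grafting. In EOM grafts it ranged from 6.09 to 10.82 log2 RPM around a median of 9.25, on either side of the 8.05 to 9.33 of EOM libraries before, and differed by 0.24 ± 0.58 (SE, limma adjusted p = 0.72). EdgeR and DESeq2 called it higher in EOM as well, at 2.36 and 2.52.

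**Figure D3:**
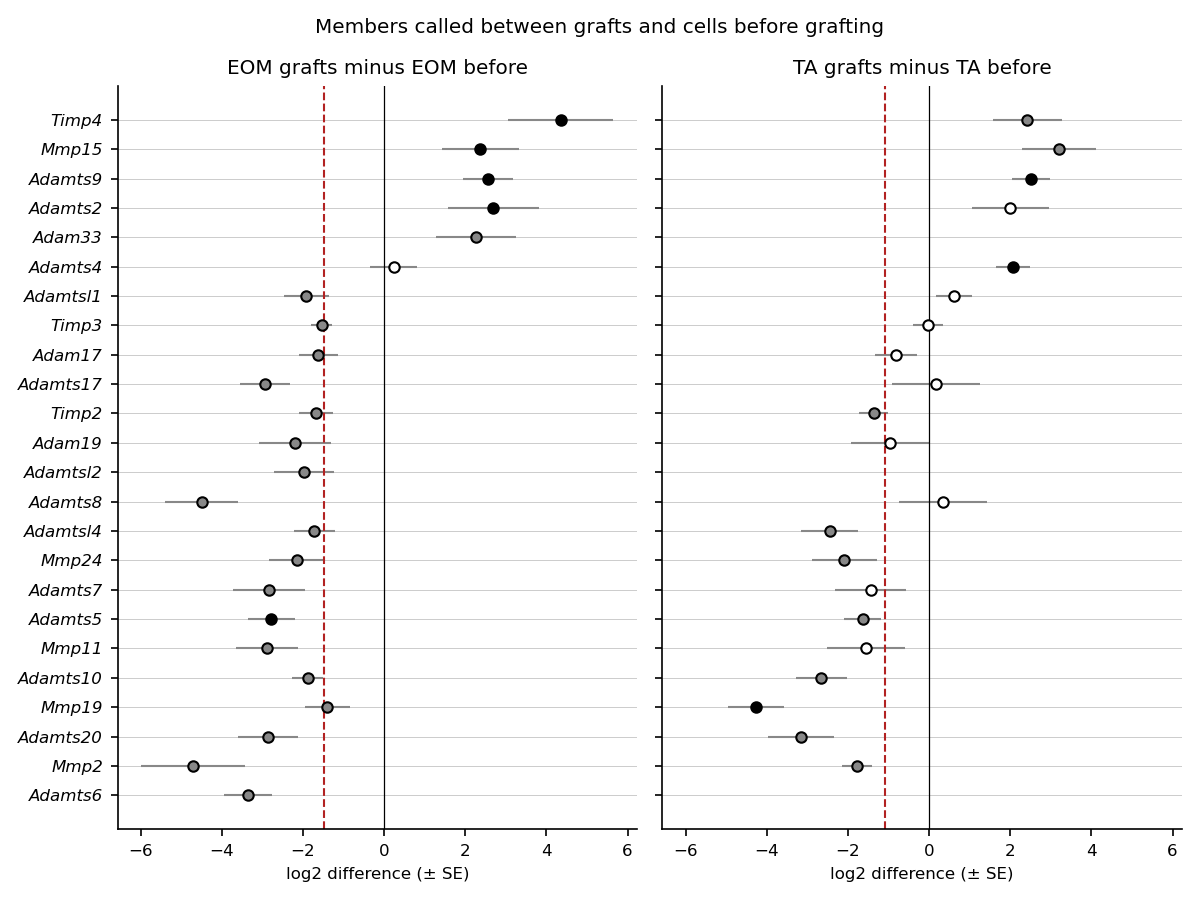
Log2 difference (graft minus before grafting, with its SE) of the 24 members called in EOM (left) or TA (right). Black points were called on every scaling, grey points on the deposited scale, and white points were not called; a gene without a point in a panel was not tested there. The dashed red line is the median of all genes tested, -1.48 in EOM and -1.09 in TA; most grey points in EOM lie near or left of it.

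Markers of other cell types also differed between grafts and cells before grafting. All 7 endothelial markers were called higher after grafting in both populations, by a median of 5.34 in EOM and 3.10 in TA on the log2 scale. Their sum was 2.27 to 431 RPM in EOM libraries before and 114 to 5023 RPM after grafting, and 4.03 to 1968 RPM and 1001 to 5863 RPM in TA libraries, with all 7 read in each group. *Adamts9*, *Adamts4* and *Mmp15* were higher in every EOM graft at 2505 RPM or more than in any at 813 RPM or less. Their ranges were 7.88 to 8.82 against 4.51 to 6.26, 9.25 to 10.82 against 6.09 to 7.59, and 3.69 to 5.06 against -1.14 to 3.23 log2 RPM. In TA grafts at 3463 RPM or more against 1930 RPM or less, *Adamts9* and *Adamts4* parted likewise and *Mmp15* did not. The summed smooth muscle and pericyte markers parted the grafts into the same sets, so the split was not particular to endothelial markers. That sum was 2002 RPM or more against 575 RPM or less in EOM, and 2610 RPM or more against 1865 RPM or less in TA grafts. All these cuts were chosen after seeing the values. For *Timp4*, single libraries did not keep 1 order. Among EOM grafts, that with the lowest sum (114 RPM) had *Timp4* at 3.44 log2 RPM, that at 717 RPM had the lowest *Timp4* (1.34), that at 813 RPM had 7.48 and that with the highest sum (5023 RPM) had 6.22. Among TA libraries before grafting, that with the lowest sum (4.03 RPM) had no *Timp4* read, that at 1412 RPM had the most (744 reads) and that with the highest sum (1968 RPM) had 194. Of the smooth muscle and pericyte markers, 2 of 5 were higher and 1 lower in EOM grafts and 3 of 5 were higher in TA grafts, with sums of 455 to 798 RPM before and 360 to 4789 RPM after in EOM, and 325 to 1515 RPM and 340 to 5851 RPM in TA. Of the fibro-adipogenic markers, 1 of 8 was higher and 3 lower in EOM grafts, and 3 of 7 were higher and 1 lower in TA grafts. Their sums were 937 to 4051 RPM in EOM and 628 to 3397 RPM in TA grafts. Of the tenocyte markers, 1 of 3 was higher and 2 lower in EOM grafts, and 1 of 2 (*Thbs4*, on every scaling) was higher in TA grafts. Of the macrophage and neutrophil markers, 1 of 4 was lower in EOM grafts and 1 of 3 (*Lyz2*, on every scaling) was higher in TA grafts. Myofibre markers were higher for 5 of 6 in EOM grafts, each on every scaling, with sums of 8.42 to 43.8 RPM before and 12.2 to 1154 RPM after, and for 1 of 6 in TA grafts. Schwann cell markers were lower for 3 of 5 in EOM grafts and for none of 4 in TA grafts. The 10 muscle stem cell markers were all called lower in both on the deposited scale, on which 55.8% and 30.9% of genes were, and 2 of 10 in EOM and 5 of 10 in TA grafts on every scaling. The part of other cell types in the higher members was not tested.

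**Figure D4:**
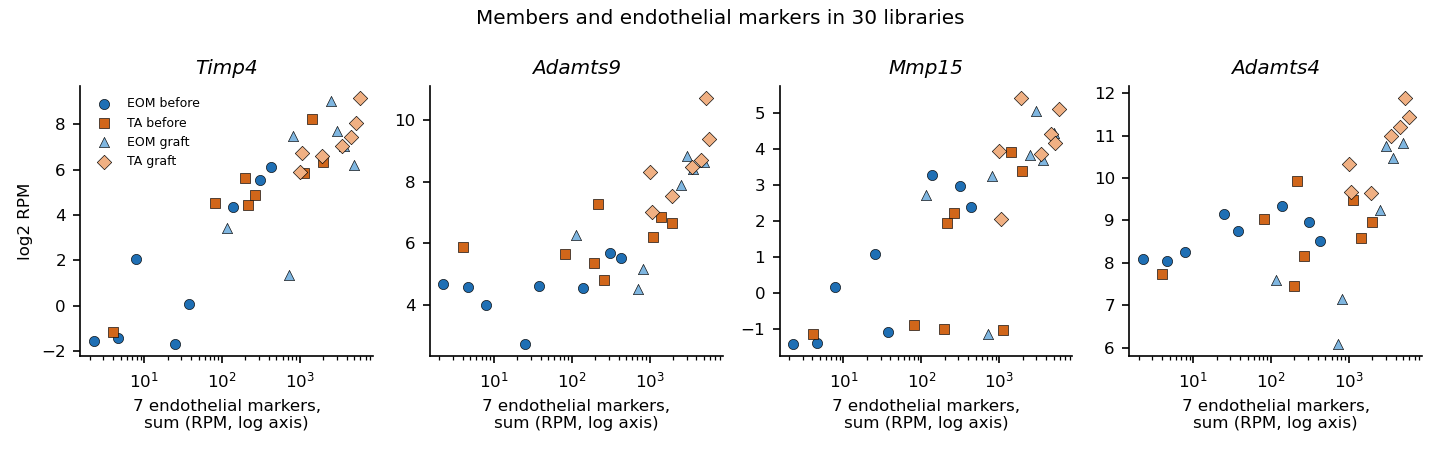
Log2 RPM of *Timp4*, *Adamts9*, *Mmp15* and *Adamts4* in each of the 30 libraries against the summed level of 7 endothelial markers in the same library (RPM, log axis); symbols give the 4 groups. Libraries share the depth on both axes. Grafts run from 114 to 5863 RPM and libraries before grafting from 2.27 to 1968 RPM, so the ranges overlap along the horizontal axis. The EOM graft without an *Mmp15* read lies at 717 RPM.

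Lower members included the main gelatinase. *Mmp2* ranged from 10.07 to 10.66 log2 RPM in EOM libraries before grafting (median 10.36) and from -0.95 to 9.50 in EOM grafts (median 7.20), without overlap. The spread among grafts was wide: 2 of the 7, of 16 and 9 cells, had no *Mmp2* read while the other 5 stood at 5.99 or above. The difference was -4.71 ± 1.27 (SE, limma adjusted p = 0.00523) and became -2.13 without the grafts of under 20 cells, still called; with edgeR it was -1.41 and was not called. In TA, *Mmp2* ranged from 8.06 to 9.38 log2 RPM before and from 6.17 to 8.18 after grafting (medians 8.86 and 6.69), a difference of -1.78 ± 0.37 (SE, limma adjusted p = 0.00216) that was -0.88 when centred on the median.

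*Adamts5* (aggrecanase-2), the member lower on every scaling in EOM, ranged from 8.19 to 8.89 log2 RPM before (median 8.60) and from 1.76 to 7.97 after grafting. No graft reached the range before grafting. The difference was -2.78 ± 0.58 (SE, limma adjusted p = 0.00117) and -1.25 with edgeR. In TA it was -1.64 ± 0.45 (SE, limma adjusted p = 0.0104), called on the deposited scale and not by edgeR (-0.62). *Mmp19*, higher in TA before grafting, was the member lower on every scaling in TA grafts: it ranged from 7.24 to 7.90 log2 RPM before (median 7.65) and from -0.66 to 6.53 after grafting (median 3.62), a difference of -4.26 ± 0.69 (SE, limma adjusted p = 3.65e-04) or 19.2-fold. In EOM grafts *Mmp19* ranged from 3.29 to 7.92 log2 RPM, 6 of the 7 being at 4.98 or below, and its difference of -1.40 ± 0.55 (SE, limma adjusted p = 0.0343) turned positive with edgeR and DESeq2 (0.30 and 0.38).

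The other calls toward lower levels were not kept on every scaling. In EOM they took in *Adamts8*, *Adamts6*, *Adamts17*, *Mmp11*, *Adamts20*, *Adamts7*, *Adam19*, *Mmp24*, *Adamtsl2*, *Adamtsl1*, *Adamts10*, *Adamtsl4*, *Timp2*, *Adam17* and *Timp3*, besides *Mmp2* and *Mmp19*, with log2 differences from -4.49 for *Adamts8* to -1.40 for *Mmp19* outside *Mmp2*. Several of these rested on few reads: *Adamts6* had at most 4 reads in an EOM graft and *Adamts17* at most 2. *Adamtsl2* had none in any, at least 2.19-fold lower than before when the grafts are set at 3 reads per library. *Adamts17* and *Adamtsl2* passed the filter on low values only through EOM libraries before grafting, the group where they were higher. Their calls therefore lean on that filter. In TA they took in *Adamts20*, *Adamts10*, *Adamtsl4*, *Mmp24*, *Mmp2*, *Adamts5* and *Timp2*, from -3.16 for *Adamts20* to -1.36 for *Timp2*. *Adam19*, a sheddase of developing muscle and heart, fell in EOM by 2.20 on the log2 scale on the deposited values but stood at 0.35 with edgeR.

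Across the 4 TIMPs, the pattern after grafting thus differed by gene. *Timp4* was called higher in both populations on the deposited scale, on every scaling in EOM only, and each call was lost without some grafts as given above. *Timp2* ranged from 9.32 to 10.48 log2 RPM before and from 6.41 to 9.58 after grafting in EOM, and from 8.82 to 9.54 and 6.34 to 9.09 in TA, with differences of -1.67 ± 0.42 and -1.36 ± 0.36 (SE, limma adjusted p = 0.00338 and 0.00796), close to the median of all genes in each. EdgeR gave -0.43 and -0.44. *Timp3* ranged from 8.99 to 10.42 log2 RPM in EOM grafts (median 9.58), below every EOM library before grafting, with a difference of -1.54 ± 0.25 (SE, limma adjusted p = 2.6e-04) that was -0.30 with edgeR. In TA *Timp3* differed by -0.03 ± 0.37 (SE, limma adjusted p = 0.954) and was positive on the other 4 scalings, up to 1.02 with DESeq2, which called it. *Timp1* differed by -0.91 ± 0.74 in EOM and 0.27 ± 0.49 in TA (SE, limma adjusted p = 0.276 and 0.667). In EOM it was positive on 3 of the 5 scalings, and in TA it was called higher on 3 (1.16 to 1.40). *Adam10*, *Mmp14* and *Adamts1* were not called in either population by limma on the deposited scale (differences from -1.20 to 0.05), and in EOM all 3 turned positive on the other 4 scalings.

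**Figure D5:**
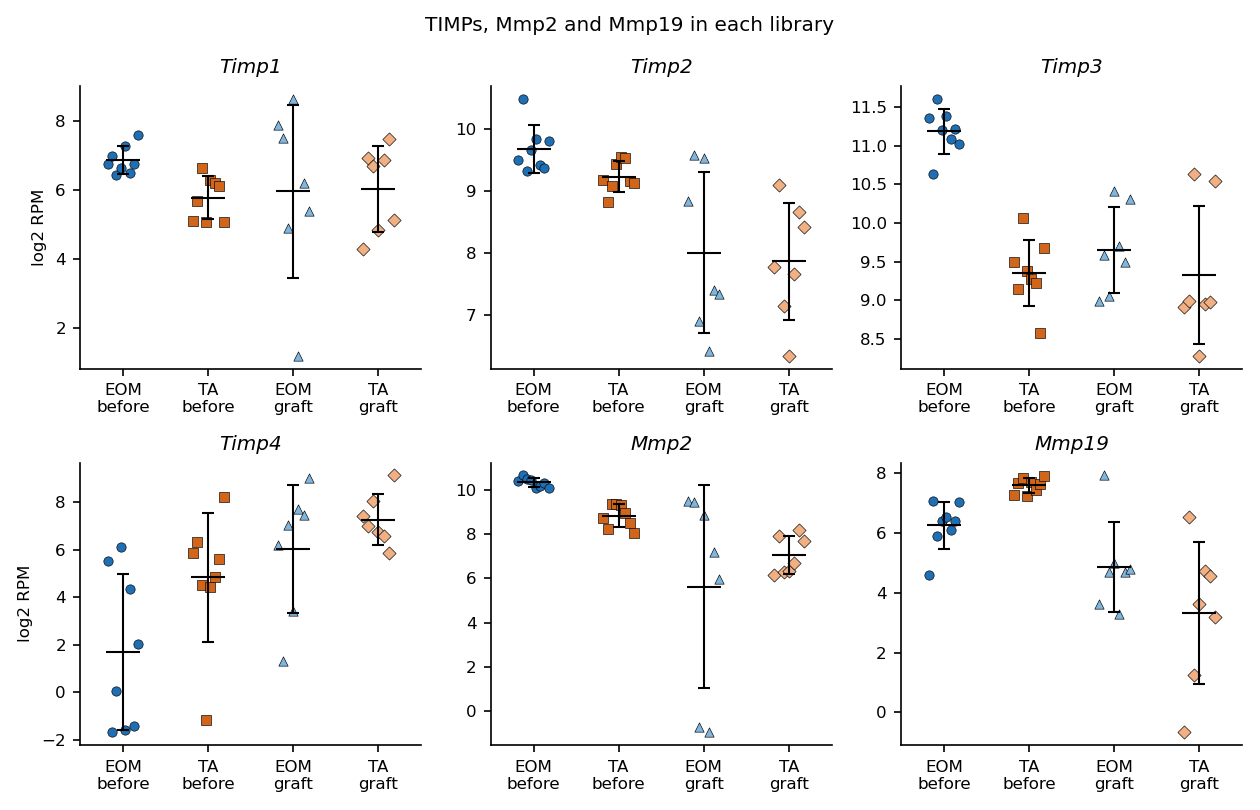
Log2 RPM of the 4 TIMPs, *Mmp2* and *Mmp19* in each library of the 4 groups (EOM and TA before grafting, n = 8 each; EOM and TA grafts, n = 7 each), with the mean and SD as bars; each panel has its own vertical axis. EOM libraries before grafting stand above all other libraries for *Mmp2*, and above all but 1 TA graft (10.64 against a lowest EOM value of 10.63) for *Timp3*. The 2 EOM grafts without an *Mmp2* read lie at the bottom of that panel.

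Regulators outside the families moved with the general shift. Of 18 tested in each population, 7 were lower in EOM grafts (*Pcsk6*, *Frmd8*, *Rhbdf1*, *Pcsk5*, *Lrp1*, *Plat* and *Tspan15*, from -4.32 to -1.54) and 4 in TA grafts (*Pcsk5*, *Rhbdf1*, *Lrp1* and *Plat*, from -2.72 to -1.31). None was higher and none held on every scaling. *Rhbdf1* and *Frmd8* belong to the machinery that brings ADAM17 to the cell surface, and *Lrp1* is the receptor that clears MMPs, ADAMTS enzymes and TIMPs. *Reck* differed by -1.45 ± 0.76 and -1.70 ± 1.02 and *Furin* by -0.74 ± 0.30 and -0.60 ± 0.42 in EOM and TA (SE), none of them called.

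The third comparison asked whether EOM and TA cells still differed once both had been grafted into TA. Of 40 members tested, 0 were called, as were 0% of 12377 genes (limma). 4 members (*Adamts4*, *Adamts9*, *Mmp17* and *Adamtsl4*) and 452 genes had an unadjusted p under 0.05, and edgeR and DESeq2 called 0 members as well. Of the members called before grafting, *Timp3* differed by -0.32 ± 0.46, *Adamtsl1* by 0.31 ± 0.66, *Timp1* by 0.08 ± 0.78 and *Mmp2* by 1.42 ± 1.12 (SE, limma adjusted p = 1.00 for each), the last turning to -0.57 with edgeR and to -1.15 without the grafts of under 20 cells. *Mmp19* was at -1.53 ± 0.93, *Adamts9* at 1.49 ± 0.62, *Adamtsl4* at -2.0 ± 0.93 and *Adamts8* at 1.08 ± 1.21 (SE), and *Adamts6* was not tested. *Adamts9* and *Adamtsl4* thus kept their direction and differed between grafts about as much as before grafting or more, with wider errors. *Mmp2* and *Mmp19* differed by about the earlier size but in the opposite direction on the deposited scale. *Timp3* kept its direction and differed less. *Adamtsl1*, *Timp1* and *Adamts8* differed less and with the sign reversed on that scale. The standard errors were larger than before grafting for each of these genes (0.46 against 0.18 for *Timp3* and 1.12 against 0.18 for *Mmp2*), so that a difference of the earlier size could be missed here.

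The last comparison tested whether EOM and TA changed differently on grafting (the EOM change less that of TA, over all 30 libraries). Of 52 members tested, 0 were called by limma, against 0.208% of 14428 genes. 12 members had an unadjusted p under 0.05, edgeR called 0, and DESeq2 called *Adamtsl1* lower at -1.97 and *Adamts12* higher at 3.74. The 4 TIMPs and *Mmp2* gave -1.51 ± 0.44 for *Timp3* (SE, limma unadjusted p = 0.00132, adjusted p = 0.221), -2.94 ± 1.39 for *Mmp2* (adjusted p = 0.684), -1.17 ± 0.91 for *Timp1*, -0.31 ± 0.56 for *Timp2* and 1.93 ± 1.64 for *Timp4*. *Adamts6* and *Adamtsl1* had the smallest unadjusted p of the members, with differences of -3.34 ± 0.91 and -2.53 ± 0.70 (SE, limma adjusted p = 0.158 and 0.166), and *Mmp19* was at 2.87 ± 0.94 (adjusted p = 0.386). This comparison shares its libraries with those above and adds no independent samples.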

How the data were processed

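Reads of sorted cells were trimmed with Trim Galore 0.4.4, mapped to GRCm38 with HISAT2 2.1.0 and, per the study's methods, scaled to library size by the authors in SeqMonk; the deposited values are log2 RPM, 1 column per library. A gene without a read was given 0.9 of a read. The RPM of a library sums to 1072417 to 1526294 over genes, for a reason not given in the sources used here. Whole reads were recovered for 99.9932% of values (within 0.02 of a read) and used for edgeR and DESeq2. Of 25965 rows, 25899 remained after keeping 1 per symbol. The authors' quality table, deposited with the study, gives total read counts and the percent of reads in genes, exons and mitochondrial genes per library. The 10 RNA libraries that failed the quality control of the study and 40 bisulfite libraries were not analysed here.

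A gene was tested where 4 or more of the libraries in a comparison exceeded 1 log2 RPM, using limma 3.58.1 (trend; R 4.3.3) on the deposited log2 values, with Benjamini-Hochberg adjustment over all genes tested. edgeR 4.0.16, DESeq2 1.42.0, other filters, centring and leaving out libraries were alternatives. The limma, edgeR and DESeq2 fits were also run on simulated counts with the same spread in all groups and no difference in mitochondrial share. That run cannot show how the fits behave with the wider spread and mitochondrial shares of the grafts. Members and lists were chosen with earlier results of these data known. Genes named are all members called in any comparison plus *Timp1* to *Timp4*, *Adam10*, *Adam17*, *Mmp2*, *Mmp9*, *Mmp14*, *Adamts1*, *Adamts5* and *Adamtsl1*, with called regulators, *Reck* and *Furin*; others were named after their values were seen. Same-numbered libraries of an experiment come from the same donor, so the samples are paired; the correlation of their deviations had medians from -0.037 to 0.054 over the 4 pairs of groups. The number of reads limits the precision of low genes.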

Additional observations from a re-analysis of the deposited data

Results flagged for a closer look

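Of 112 sets of 1 named gene in 1 group examined, 16 held a library far from the others by Dixon's test at 95%. Chance flags about 1 in 20 where values are normal. That rate does not hold for sets with most libraries at 0 reads, where a few reads can be flagged. Values are log2 RPM. The EOM library of mouse 2, experiment 2, before grafting was high for *Mmp9* (5.11, 99 reads), *Timp2* (10.48, 4070 reads) and *Adam33* (2.19); the same library had the highest macrophage and neutrophil sum (1796 RPM), whose part was not tested. The TA library of mouse 3, experiment 2, before grafting was low for *Adam17* (4.99), *Mmp11* (-1.14, 0 reads) and *Timp4* (-1.14, 0 reads). The EOM graft of mouse 3, experiment 2, of 16 cells, was low for *Adam17* (2.02) and *Adamts5* (1.76). The TA graft of that mouse was low for *Mmp14* (1.71) and flagged for *Adam33* (0.71) on 2 reads. The EOM graft of mouse 2, experiment 2, was high for *Mmp19* (7.92, 481 reads) and low for *Mmp15* (-1.14, 0 reads). Single sets were flagged for *Adamts17* in EOM grafts (0.81, 2 reads), *Adamtsl2* in TA grafts (4.60, 38 reads), and before grafting in EOM for *Mmp11* (1.40) and *Mmp19* (4.58).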

How the results depend on the processing

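Few cells, high mitochondrial shares and 7 libraries per kind of graft limit the graft comparisons, and genes near 0 reads lean on the value set for 0. Of the values of called genes under alternatives other than leaving out 1 library, 437 kept direction and call, 148 kept direction only and 4 turned. Leaving out 1 library, 601 kept the call and 60 lost it. Causes were not tested. Members higher in TA before grafting (2) numbered 4 with the replicate block, 0 in experiment 2 alone, with all libraries or in 1 fit over 4 groups, 5 with edgeR and 6 with DESeq2. Those lower (7) numbered 4 with all libraries and 4 in 1 fit. Members higher in TA grafts (4) numbered 2 in experiment 2, 7 without mitochondrial genes, 8 centred, 11 with DESeq2. Those lower (8) numbered 4, 5, 3 and 2 under these, and 1 with edgeR. Members higher in EOM grafts (5) numbered 3 with log2 of RPM plus 1, the stricter filter, the replicate block, experiment as covariate or without grafts over 50% mitochondrial, 2 with all libraries, 8 centred or with edgeR, 9 with DESeq2. Those lower (18) numbered 8 without mitochondrial genes, 3 centred, with edgeR or DESeq2, 9 without grafts over 50% mitochondrial. The difference between the changes gave 2 with DESeq2 (0 otherwise). Without 1 library the counts ran from 2 to 4 and 6 to 9 before grafting, 4 to 6 and 7 to 11 in TA grafts, 2 to 5 and 15 to 19 in EOM grafts, 0 to 0 between grafts and 0 to 1 for the changes. Over all genes, edgeR called 247 higher and 191 lower before grafting (limma 166 and 437), 782 and 402 in TA grafts (496 and 4046) and 907 and 380 in EOM grafts (460 and 7302). In the same order, DESeq2 called 322 and 244, 1149 and 516, and 1189 and 496. Centred, these were 234 and 275, 1003 and 743, and 871 and 634. Without mitochondrial genes they were 203 and 311, 787 and 1552, and 681 and 1627. With all libraries they were 29 and 173, 438 and 4538, and 142 and 7004.

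Beside the calls named with the block in the report, the replicate block lost *Mmp24* in TA grafts (-2.11) and *Mmp15* (2.40), *Adamts7* (-2.27) and *Adam19* (-1.80) in EOM grafts, left *Adam33* and *Adamtsl2* untested there, and changed no other call of the named genes. Values that turned sign follow. Before grafting, *Adam10* stood at 0.051 centred, 0.039 with edgeR and 0.045 with DESeq2, and *Mmp14* at 0.064 without mitochondrial genes, 0.14 centred, 0.15 with edgeR and 0.15 with DESeq2 (-0.21 to 0.015 without 1 library). In TA grafts, *Adam10* was -0.011 in experiment 2 (-0.17 to 0.19 without 1 library). *Timp3* was 0.059 with experiment as covariate, 0.10 with all libraries, 0.56 without mitochondrial genes, 0.87 centred, 0.90 with edgeR, 1.02 with DESeq2 and 0.15 without grafts over 50% mitochondrial (-0.25 to 0.15). *Adam17* was 0.089 centred, 0.28 with edgeR and 0.39 with DESeq2. *Adamts1* was 0.26 without mitochondrial genes, 0.57 centred, 0.77 with edgeR, 0.87 with DESeq2, 0.032 without grafts of under 20 cells and 0.17 without those over 50% mitochondrial (-0.68 to 0.17). In EOM grafts, without mitochondrial genes, centred, with edgeR and with DESeq2, *Adam10* was 0.14, 0.51, 0.37 and 0.46, *Mmp14* 0.24, 0.61, 0.63 and 0.71, and *Adamts1* 0.33, 0.70, 0.85 and 0.99. *Mmp19* was 0.30 and 0.38 and *Adam19* 0.35 and 0.42 with edgeR and DESeq2. *Timp1* was 0.34 centred, 0.88 with edgeR, 0.93 with DESeq2, 0.26 without grafts of under 20 cells and 0.49 without those over 50% mitochondrial. Between grafts, *Adamtsl1* was -0.66 with all libraries, -0.21 without grafts of under 20 cells and -0.53 without those over 50% mitochondrial (-0.16 to 0.70). *Timp4* was -0.057 with edgeR and -0.055 with DESeq2. *Mmp2* was -0.57, -0.58, -1.15 and -1.29 (edgeR, DESeq2, both exclusions). *Timp2* was 0.24 with the replicate block and in experiment 2 (-0.40 to 0.13). *Adam17* was -0.053 with all libraries and -0.040 without grafts of under 20 cells (-0.018 to 0.95). *Adamts5* was -0.30 and -0.23 with the exclusions (-0.24 to 0.79). *Timp1* was -0.043 without mitochondrial genes, -0.032 centred, -0.35 with edgeR, -0.37 with DESeq2, -0.66 and -1.11 with the exclusions (-0.71 to 0.53). For the changes, *Timp2* was 0.10 centred, 0.036 and 0.26 with the exclusions. *Mmp14* was -0.48 with the replicate block and -0.063 with all libraries (-0.038 to 0.84). *Adamts1* was 0.32 in experiment 2, 0.062 without mitochondrial genes, 0.19 centred, 0.071 with edgeR and 0.12 with DESeq2 (-0.72 to 0.13). *Timp1* was 0.021 without grafts over 50% mitochondrial. The exclusions of grafts were chosen after seeing the data.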
